A study of Mus musculus with 10 samples.

Results

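The genes described here are 10 imprinted growth regulators: Igf2, H19, Dlk1, Meg3, Plagl1, Mest, Peg3, Grb10, Cdkn1c and Ndn. They were chosen by name, each to be represented by the probe sets annotated with that symbol alone. Of the 10 genes, 9 had such a probe set and all 9 were among the 14988 genes tested on the arrays. H19 had none, because its only probe set also carries the symbol of the microRNA Mir675 inside it, and no value is given for H19. The 9 genes had 36 probe sets, of which 29 reached a log2 value of 5 on at least 2 arrays.

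The arrays measured total RNA of whole lungs from ICR mice in a model of bronchopulmonary dysplasia, the lung disease of preterm infants treated with oxygen. Newborn pups were pooled and randomised to 80% oxygen or room air, for 14 or for 29 days, while nursing dams were rotated between the exposures. The 4 groups were room air at postnatal day 14 (P14, 2 arrays), hyperoxia at P14 (3 arrays), room air at P29 (2 arrays) and hyperoxia at P29 (3 arrays). The titles call the room-air lungs WT and the hyperoxia lungs BPD, and the labels give no genetic change in any group. Nothing in the labels ties an array to its own animal, so the p-values cover only the spread between these arrays, which may be technical.

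Imprinting silences the copy of a gene inherited from either the mother or the father, so that each of these genes is expressed mainly from a single parental copy. Paternally expressed members such as Igf2, Dlk1, Plagl1, Mest and Peg3 are known mostly as promoters of fetal growth, and maternally expressed members such as H19, Grb10 and Cdkn1c mostly as brakes on it. Many imprinted growth genes are known to be abundant in fetal organs and to be turned down together after birth as growth slows. The arrays measured both parental copies together and give no information on imprinting itself.

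The arrays carried 3 features that move with the groups. The gap between the 3' and 5' probe sets for actin, a measure of RNA integrity, ran from 1.33 to 2.21 in hyperoxia and from 0.32 to 0.74 in room air. The mean log2 value of 3 Y-linked genes was 7.68 to 8.71 on the P14 arrays and 3.57 and 4.04 on the P29 room-air arrays. At P29 in hyperoxia it was 8.51, 3.47 and 7.71 on replicates 1, 2 and 3, and replicate 3 also carried the female transcript Xist at 11.94. The part of RNA quality and sex in the results below was not tested beyond the fits named beside them. The lung markers Sftpc, of alveolar type II cells, and Scgb1a1, of club cells, were present on every array, at log2 values of 14.66 to 14.89 and 14.45 to 15.003. In whole tissue, fewer cells of a type and less RNA per cell cannot be told apart.

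Promoter sequence is shown for Peg3, Grb10 and Ndn, because these were the members furthest above room air at P29. The RefSeq promoter table of build GRCm38.p6 held 15 windows for 8 of the 10 members, each from 250 bases before to 50 bases after a start site. The 250 bases before the start of Peg3 (chr7:6730420-6730669, minus strand), of the first of 2 Grb10 starts (chr11:12037421-12037670, minus strand) and of Ndn (chr7:62348027-62348276, plus strand) read 5′ to 3′ as follows. Capitals mark each CG dinucleotide, the target of DNA methylation, and in Peg3 also the GGGGCCCC described beneath.
Peg3: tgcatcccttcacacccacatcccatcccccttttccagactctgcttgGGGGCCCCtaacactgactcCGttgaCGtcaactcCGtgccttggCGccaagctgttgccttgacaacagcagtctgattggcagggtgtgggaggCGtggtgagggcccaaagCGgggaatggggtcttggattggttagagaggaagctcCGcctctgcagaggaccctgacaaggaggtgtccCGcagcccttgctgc
Grb10: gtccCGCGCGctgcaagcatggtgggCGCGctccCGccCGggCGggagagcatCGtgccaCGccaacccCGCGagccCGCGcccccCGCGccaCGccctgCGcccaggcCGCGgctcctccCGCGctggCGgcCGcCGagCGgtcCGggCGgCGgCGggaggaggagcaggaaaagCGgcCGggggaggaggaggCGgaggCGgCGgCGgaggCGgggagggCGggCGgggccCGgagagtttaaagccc
Ndn: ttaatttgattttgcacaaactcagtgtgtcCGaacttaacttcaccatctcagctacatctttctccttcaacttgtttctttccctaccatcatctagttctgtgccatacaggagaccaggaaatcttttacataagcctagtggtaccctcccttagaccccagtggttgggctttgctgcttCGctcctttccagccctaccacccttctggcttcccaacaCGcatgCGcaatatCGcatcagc

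The windows differed widely in base composition. The first Grb10 window held 45 CG dinucleotides in its 300 bases, as many as or more than 98.4% of the 32851 windows in the table, whose median was 7. The Peg3 window held 13, the Ndn window 11, and the 15 windows of the members ranged from 1 to 45. The letters GGGGCCCC, which read the same on both strands and form the core of the site bound by the member Plagl1, were searched in each window. They stood in 1 of the 15 windows, that of Peg3, at position -201 from the start, and in 1.08% of all windows. The E2F letters TTTCGCGC and TTTGGCGC, searched on both strands, were in 0 of the 15 windows and in 0.323% and 0.514% of all windows. A match is a description of letters, and a missing match says only that they are not in these windows.

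The first question was how the genes changed with age in room air. All 9 had lower values at P29 than at P14, 8 of them past the test (limma, Benjamini-Hochberg adjusted p under 0.05 over all 14988 genes), and on all 9 the P29 arrays lay below the P14 arrays. Of all genes tested, 19.1% were called lower with age in room air, and on 33% the P29 arrays lay below the P14 arrays. Of the 9, 6 fell by 2-fold or more, as did 3.66% of all genes. The median difference of the 9 was -1.25 on the log2 scale, beside 0.01 over all genes. These P29 arrays are of female pattern and the P14 arrays of male pattern, so age and sex cannot be told apart within room air. With the mean level of the Y-linked genes as a term, which draws on the hyperoxia arrays, 8 members were called lower, 7 of them the same: Plagl1 was lost and Cdkn1c gained.

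Peg3, a zinc finger protein that acts in growth and in nutrient and maternal behaviour, fell furthest. Its log2 values were 11.08 and 11.19 on the P14 room-air arrays and 8.44 and 8.44 on the P29 room-air arrays. The fall of 6.48-fold (-2.70 ± 0.10, SE, limma adjusted p = 2.81e-08) was far outside the spread within either group. Both other probe sets of Peg3 that passed the filter fell as well (-2.49 and -2.22).

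Mest, an enzyme of the alpha/beta hydrolase family linked to growth of fetal tissue and fat, stood at 12.00 and 12.04 at P14 and at 9.96 and 9.26 at P29. The fall was 5.30-fold (-2.41 ± 0.20, adjusted p = 4.03e-06), and the P29 room-air arrays of Mest lay further apart than those of any other member. Grb10, an adaptor that restrains signalling from the insulin and IGF1 receptors, stood at 11.95 and 12.05 at P14 and at 9.91 and 9.80 at P29. This was a fall of 4.42-fold (-2.14 ± 0.08, adjusted p = 3.5e-08), and its 2 further probe sets fell as well (-1.96 and -1.94).

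Meg3, a maternally expressed long noncoding RNA, fell 2.98-fold (-1.58 ± 0.12, adjusted p = 2.31e-06), from 9.94 and 10.30 to 8.51 and 8.57. Its 11 probe sets did not move alike. Of these, 6 were called lower, from -0.65 to -3.21, and the rest differed by -0.21 to 0.06 and were not called. Dlk1, the paternally expressed neighbour of Meg3 and a membrane ligand related to those of Notch, was dim, at 6.29 and 6.38 at P14 and 5.83 and 5.60 at P29. It fell by 0.62 ± 0.15 (SE, limma adjusted p = 0.00589), and the call did not hold without P29 room air replicate 2 (-0.50). Nor did it hold on the mean of both Dlk1 probe sets (-0.17, limma adjusted p = 0.40), the second of which was under the filter on every array.

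Igf2, the fetal insulin-like growth factor, stood at 9.20 and 9.06 at P14 and at 7.94 and 7.87 at P29, a fall of 2.34-fold (-1.22 ± 0.10, adjusted p = 3.57e-06). Ndn, or necdin, a nuclear protein that holds back the cell cycle and cell death in neurons, fell 2.38-fold (-1.25 ± 0.15, adjusted p = 4.56e-05), from 10.20 and 10.74 to 9.24 and 9.19. All 5 Ndn probe sets that passed the filter fell (-1.03 to -1.46).

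The nuclear regulators Plagl1 and Cdkn1c changed least. Plagl1, the zinc finger factor known to activate other imprinted genes, fell by 0.56 ± 0.13 (SE, limma adjusted p = 0.00593), and without P14 room air replicate 1 or P29 room air replicate 1 the adjusted p was 0.0524 or 0.05003. Its other probe sets differed by -0.43 and -0.30 and were not called. Cdkn1c, an inhibitor of cyclin-dependent kinases, stood at 9.80 and 9.75 at P14 and 9.39 and 9.28 at P29. Its difference of -0.45 ± 0.17 missed the threshold (limma adjusted p = 0.0528), but only narrowly. It was called after quantile normalization (adjusted p = 0.0471) and in the fit of only the groups compared (adjusted p = 0.0144). At each array's 75th percentile it was not (adjusted p = 0.0552).

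**Figure D1:**
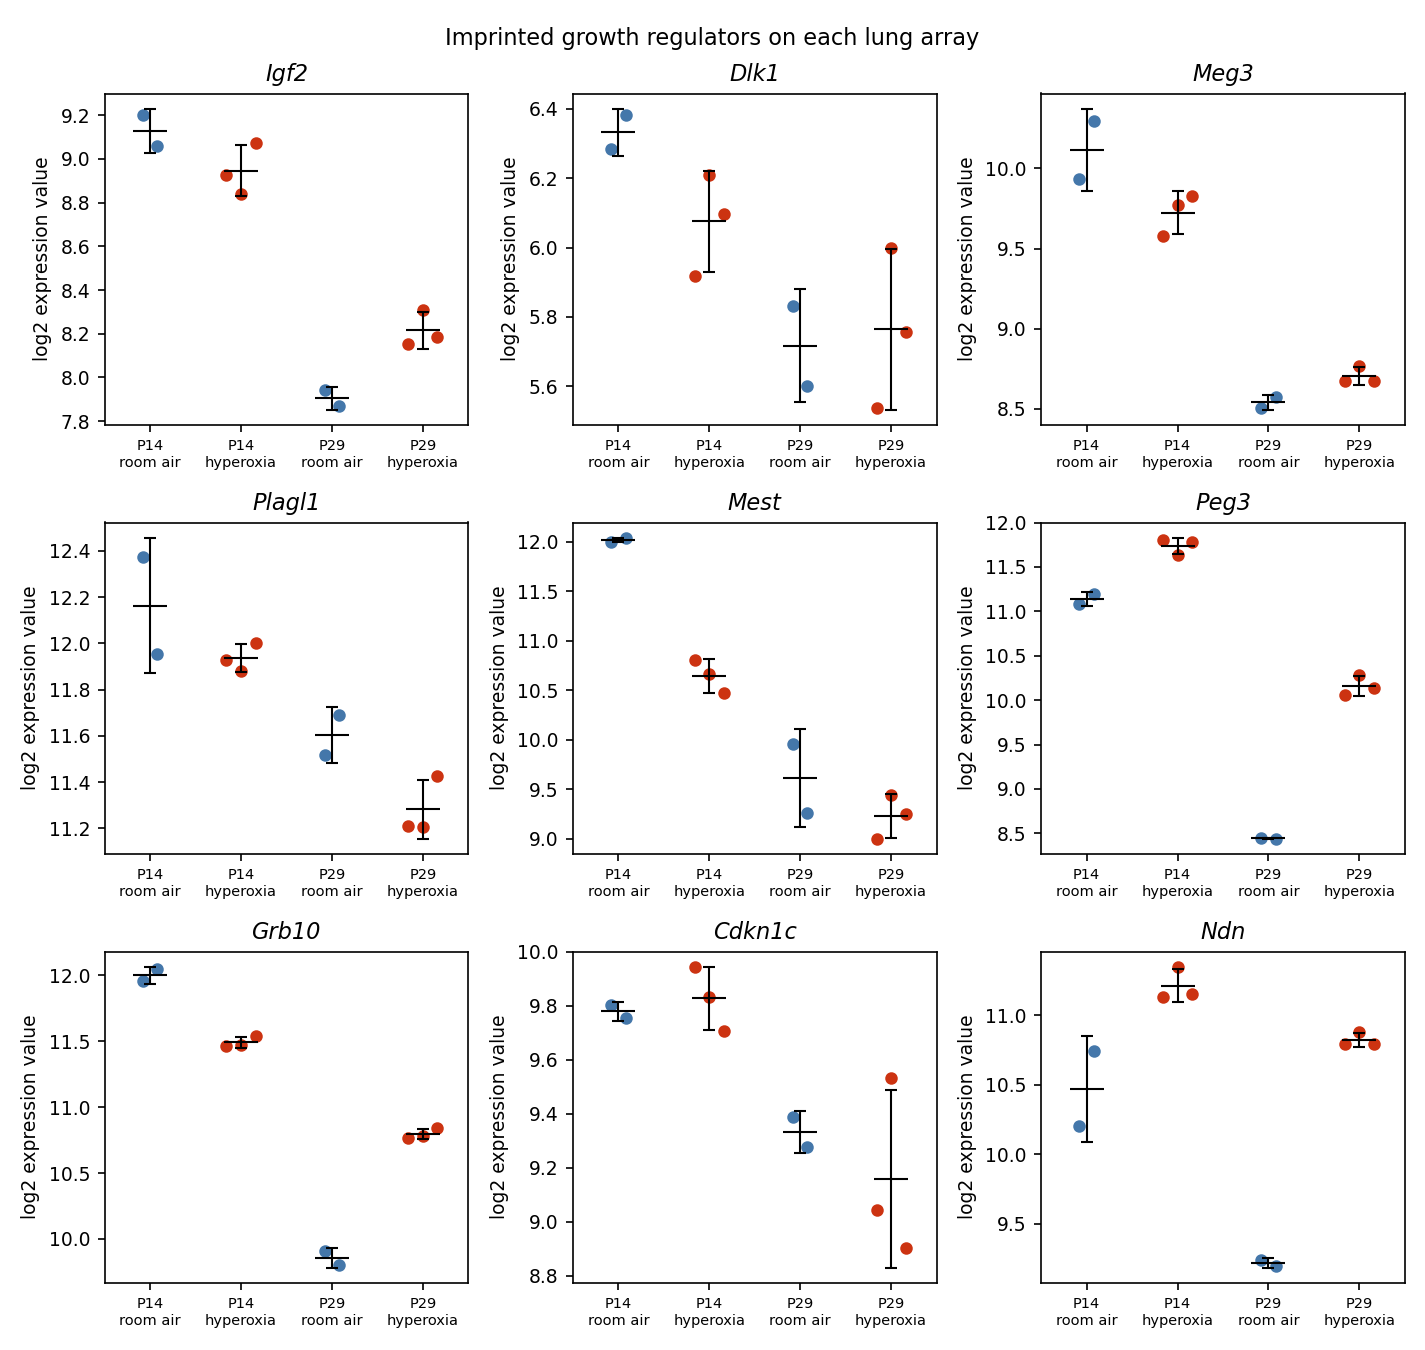
Log2 expression value of the leading probe set of each of 9 imprinted growth regulators on each of 10 arrays, by group, with blue points for room air (2 arrays a group) and red for hyperoxia (3 arrays a group); black lines are group means and bars are SD. In every panel the P29 room-air arrays lie below the P14 room-air arrays, and for Peg3, Grb10 and Ndn the P29 hyperoxia mean lies 1.72, 0.94 and 1.60 above that of room air. The vertical scales differ between panels.

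The second question was what hyperoxia had changed by P14. Mest and Grb10 were lower and Peg3 and Ndn higher in hyperoxia, so the members did not move as a block. Of the 9, 2 rose and 3 fell, while 32.3% of all genes were called higher and 22.8% lower, so the share of members called was close to that of all genes. The median of the 9 was -0.23, beside 0.04 over all genes. With the actin gap added to the fit, 0 of the 9 were called with limma, with 1391 of all genes called in place of 8250, and the 5 differences kept their signs.

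Mest stood at 10.81, 10.67 and 10.47 in hyperoxia against 12.00 and 12.04 in room air at P14. It was 2.59-fold lower (-1.37 ± 0.19, SE, limma adjusted p = 0.00014), and every hyperoxia array lay below both room-air arrays. Grb10 stood at 11.47, 11.47 and 11.54 in hyperoxia, below both room-air values, a fall of 0.51 ± 0.08 (adjusted p = 0.000266). A second Grb10 probe set was also called lower (-1.01). The third was at 7.84 and 7.03 in room air and under the filter on all hyperoxia arrays, so no size is given for it. Meg3 was lower by 0.39 ± 0.11 (adjusted p = 0.0124), and without P14 room air replicate 2 by 0.21 (adjusted p = 0.143). Of the 11 Meg3 probe sets, 4 were called lower and 1 higher.

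Peg3 stood at 11.80, 11.63 and 11.79 in hyperoxia against 11.08 and 11.19 in room air at P14, a rise of 0.60 ± 0.09 (SE, limma adjusted p = 0.000268). The rise rests on this probe set, since its 2 others differed by 0.15 and 0.14 and were not called. Ndn stood at 11.14, 11.35 and 11.15 in hyperoxia, above the room-air values of 10.20 and 10.74, and rose by 0.74 ± 0.13 (adjusted p = 0.000875). Without P14 room air replicate 1 the rise of Ndn was 0.47 (adjusted p = 0.00736). Of its 5 probe sets 4 rose, and the fifth differed by -0.15 without being called.

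The growth ligands were not called at P14 on the values as deposited. Igf2 differed by -0.18 ± 0.09 (SE, limma adjusted p = 0.116), with 1 hyperoxia array at 9.07 between the room-air values of 9.06 and 9.20. Its difference was -0.33 after quantile normalization and -0.28 with each array set to its own 75th percentile, both past the threshold (adjusted p = 0.0143 and 0.0265). Dlk1 differed by -0.26 ± 0.14 (adjusted p = 0.125), and at each array's 75th percentile by -0.36, past the threshold (adjusted p = 0.0415). Plagl1 differed by -0.23 ± 0.12 (adjusted p = 0.139) and Cdkn1c by 0.05 ± 0.15 (adjusted p = 0.805). Without P14 room air replicate 2 Plagl1 was called, at -0.43 (adjusted p = 0.0138), and a dimmer Plagl1 probe set was called at -1.12.

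The third question was what hyperoxia had changed by P29. Peg3, Ndn and Grb10 were 3.28-fold, 3.04-fold and 1.92-fold higher in hyperoxia, and Igf2 was 1.24-fold higher. In all 4 members rose and Plagl1 fell, while 34.2% of all genes were called higher and 25.6% lower. The median of the 9 was 0.17, beside 0.04 over all genes. With the actin gap added to the fit, 3 members were called, and these were Peg3 (1.61), Grb10 (0.84) and Ndn (1.52). The room-air arrays were of female pattern, and set against P29 hyperoxia replicate 2 alone, the hyperoxia array of female pattern, these 3 genes differed by 1.84, 0.92 and 1.66. Their adjusted p stayed under the threshold, but a single array has no spread of its own and was assumed to vary like the other groups.

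Peg3 stood at 10.05, 10.28 and 10.14 in hyperoxia and at 8.44 and 8.44 in room air at P29. The difference was 1.72 ± 0.09 (SE, limma adjusted p = 2.22e-07), and all hyperoxia arrays lay far above both room-air arrays. All 3 Peg3 probe sets that passed the filter rose, by 0.65 to 1.72. Ndn stood at 10.80, 10.88 and 10.79 against 9.24 and 9.19, a difference of 1.60 ± 0.13 (adjusted p = 3.67e-06), and all 5 of its probe sets rose, by 0.84 to 1.83. On the leading probe sets, Ndn was the only member whose P29 hyperoxia arrays all lay above the P14 room-air arrays, the highest of which was 10.74. The margin was narrow, and the share of all genes that lay so was not counted. On the dimmest Ndn probe set that passed the filter they lay below instead, at 9.33, 9.39 and 9.39 against 9.91 and 10.07. The remaining ones that passed went with the leading probe set.

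Grb10 stood at 10.77, 10.78 and 10.84 in hyperoxia and at 9.91 and 9.80 in room air at P29, a difference of 0.94 ± 0.08 (SE, limma adjusted p = 3.03e-06). The hyperoxia arrays lay close together and apart from room air. A second Grb10 probe set rose by 0.49, but the third, dimmest one, which reached a log2 value of 5 on 4 arrays only, was lower in hyperoxia, where its values of 4.67, 4.45 and 4.87 were under the filter, against 5.59 and 5.40 in room air. On the mean of all Grb10 probe sets the difference was 0.20 and was not called (limma adjusted p = 0.0555).

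Igf2 stood at 8.15, 8.31 and 8.19 in hyperoxia against 7.94 and 7.87 in room air at P29, a rise of 0.31 ± 0.09 (SE, limma adjusted p = 0.0138). Its arrays did not overlap, but the call ended after quantile normalization (0.21, adjusted p = 0.09), at each array's 75th percentile (0.18, adjusted p = 0.123), on the mean of both Igf2 probe sets, the second of which was under the filter on every array (0.015, adjusted p = 0.867), and without P29 room air replicate 2 (0.27, adjusted p = 0.085). Plagl1 fell by 0.32 ± 0.12 (adjusted p = 0.0411). Its call ended without P29 room air replicate 1 or 2, without P29 hyperoxia replicate 1 or 2, and without any 1 of the P14 hyperoxia arrays (adjusted p from 0.0512 to 0.233). In the fit over all probe sets, a dimmer Plagl1 probe set was called lower (-1.18, limma adjusted p = 0.00129). Another differed by 0.18 and was not called (adjusted p = 0.266).

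Mest differed by -0.38 ± 0.19 at P29 (SE, limma adjusted p = 0.0973), with overlapping arrays at 8.999, 9.45 and 9.24 in hyperoxia and 9.96 and 9.26 in room air. Without P29 room air replicate 2 the difference was -0.73 (adjusted p = 0.00566). Meg3 differed by 0.17 ± 0.11 (adjusted p = 0.223), Dlk1 by 0.05 ± 0.14 (adjusted p = 0.776) and Cdkn1c by -0.17 ± 0.15 (adjusted p = 0.347). Among the 11 Meg3 probe sets, 1 was called higher (0.51) and 1 lower (-0.27) in the fit over all probe sets. Cdkn1c stood at 9.04, 9.53 and 8.90 in hyperoxia, with the array of female pattern highest, and without that array it was called lower, at -0.36 (adjusted p = 0.0128). Set against that array alone, room air was lower than hyperoxia by 0.20, with no spread of its own for the single array.

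**Figure D2:**
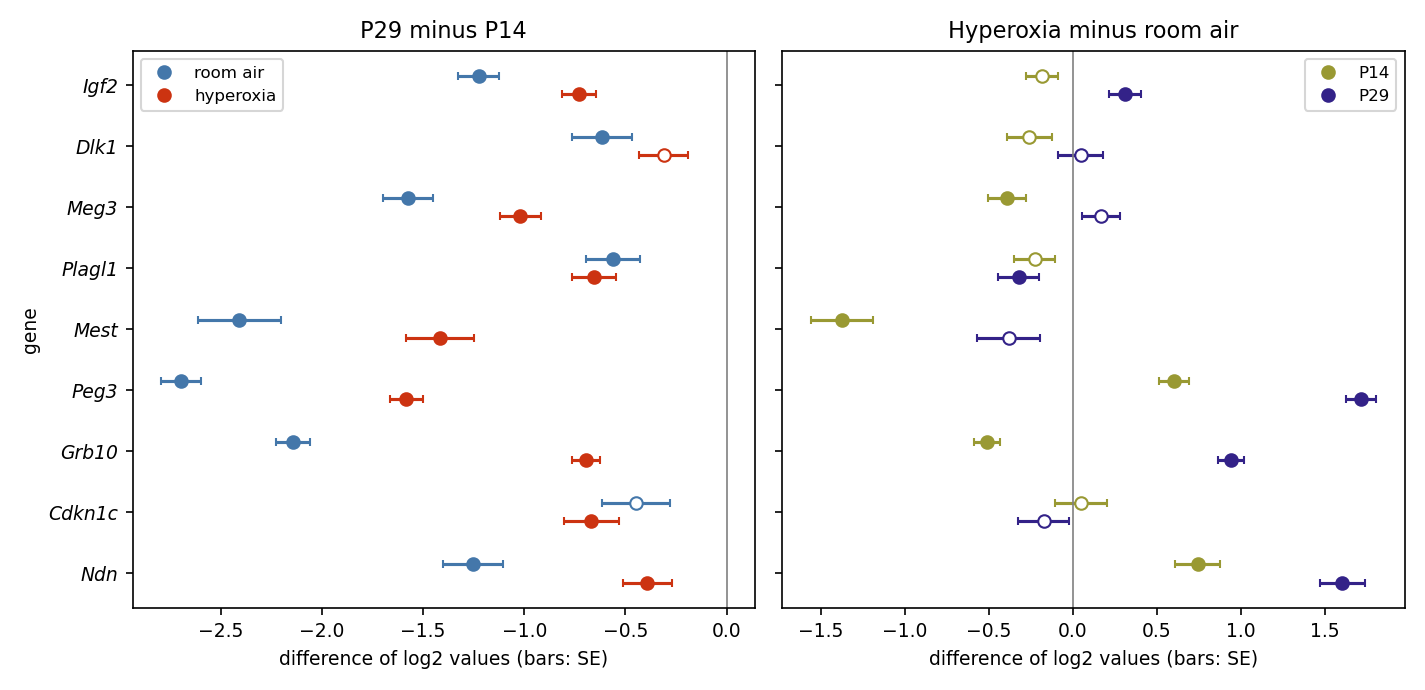
Differences of log2 values for 9 imprinted growth regulators, with SE bars; the left panel shows P29 minus P14 in room air (blue) and in hyperoxia (red), and the right panel hyperoxia minus room air at P14 (olive) and at P29 (violet). Filled points have an adjusted p under 0.05. All age differences lie below 0, and the effect at P29 lies to the right of that at P14 for every gene but Plagl1 and Cdkn1c. Comparisons that share arrays are not independent.

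The fall with age in hyperoxia was then set beside that in room air. All 9 genes had lower values at P29 than at P14 in hyperoxia, and 8 were called lower, beside 11.7% of all genes, with Dlk1 the one not called (-0.31 ± 0.12, limma adjusted p = 0.0805). Of these, 3 fell by 2-fold or more, beside 0.761% of all genes, which were Peg3 (-1.58 ± 0.08), Mest (-1.42 ± 0.17) and Meg3 (-1.02 ± 0.10). The falls of Igf2 (-0.73 ± 0.08), Grb10 (-0.70 ± 0.07), Cdkn1c (-0.67 ± 0.14), Plagl1 (-0.66 ± 0.11) and Ndn (-0.39 ± 0.12) were smaller than 2-fold. The 11 Meg3 probe sets differed by -1.42 to -0.06, and 6 were called lower. The other Plagl1 probe sets differed by -0.48 and -0.16 and were not called. On the mean of all Grb10 probe sets the fall was -0.41 (adjusted p = 0.0018), and on the third, under the filter on all these arrays, -0.08 (adjusted p = 0.833, not called). The fall of Cdkn1c was -0.30 and not called against P29 hyperoxia replicate 2 alone, an array with no spread of its own (adjusted p = 0.137). The call on Ndn (adjusted p = 0.032) ended without any 1 of the 6 hyperoxia arrays (adjusted p from 0.0508 to 0.119).

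The test of the difference between the hyperoxia effects at P29 and P14 is, by its construction, also the test of whether the fall with age differed between hyperoxia and room air. For 6 of 9 members the effect was higher at P29, and for 0 it was lower, beside 11% and 11.6% of all genes. Grb10 differed most, by 1.45 ± 0.11 (SE, limma adjusted p = 1.28e-05), with its effect at P14 negative and that at P29 positive. A second Grb10 probe set was called as well, at 1.5003, and the third, under the filter on all hyperoxia arrays, is not counted here. Peg3 differed by 1.11 ± 0.13 (adjusted p = 0.000172), though its dimmest probe set, at 0.51, was not called (adjusted p = 0.228). The effects on Ndn differed by 0.86 ± 0.19 (adjusted p = 0.00785) with all 5 probe sets called, at 0.68 to 0.99.

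Mest differed by 0.99 ± 0.26 (SE, limma adjusted p = 0.0199), Meg3 by 0.56 ± 0.16 (adjusted p = 0.0274) and Igf2 by 0.49 ± 0.13 (adjusted p = 0.02). These 3 calls all ended without P29 room air replicate 2, where 3 members were called. The call on Igf2 also ended on the mean of both its probe sets (0.13, adjusted p = 0.392). It ended too without P14 room air replicate 1, that on Mest without either P14 room air array, and that on Meg3 without P14 room air replicate 2 (adjusted p from 0.0507 to 0.105). It also ended for Meg3 without P29 room air replicate 1, P14 hyperoxia replicate 1 or P29 hyperoxia replicate 2 (adjusted p from 0.0524 to 0.085). Among the 11 Meg3 probe sets 3 were called higher and 1 lower in this test, and the leading one had an adjusted p of 0.0521 in the fit over all probe sets. Dlk1 (0.31 ± 0.19), Plagl1 (-0.10 ± 0.17) and Cdkn1c (-0.22 ± 0.22) were not called.

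**Figure D3:**
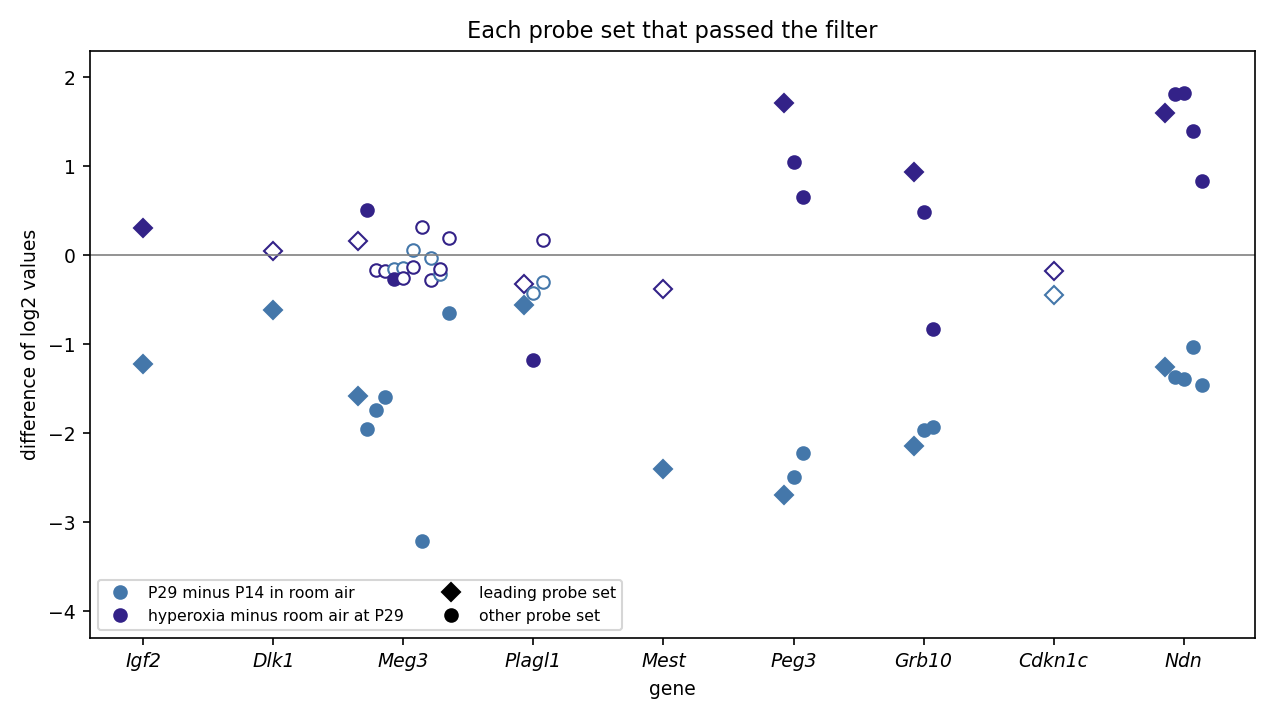
Differences of log2 values on each of the 29 probe sets that passed the filter, by gene, with blue for P29 minus P14 in room air and violet for hyperoxia minus room air at P29; diamonds are the leading probe sets, circles the others, and filled symbols have an adjusted p under 0.05 in a fit over all probe sets. The 3 Peg3 and 5 Ndn probe sets all lie below 0 with age in room air and all above 0 for hyperoxia at P29. By contrast, 1 of 3 Grb10 probe sets lies below 0 at P29 and the Meg3 probe sets spread from -3.21 to 0.06 with age. In this fit the leading probe set of Plagl1 was not called at P29 (adjusted p = 0.057).

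The order of the 4 group means was shared by several members. Igf2, Dlk1, Meg3 and Grb10 ran from room air at P29, through hyperoxia at P29 and hyperoxia at P14, to room air at P14. For Dlk1 and Meg3 the lowest neighbours, both at P29, did not differ past the test, and for Igf2 and Dlk1 the highest neighbours, both at P14, did not. For Dlk1 the middle neighbours, both in hyperoxia, did not either. Plagl1 and Mest had hyperoxia at P29 lowest and room air at P14 highest. For Mest the lowest neighbours, both at P29, did not differ past the test. For Plagl1 the highest neighbours, both at P14, did not, and the call between its P29 pair ended without any of several single arrays. Peg3 and Ndn had hyperoxia at P14 highest. For Cdkn1c neither the P14 pair nor the P29 pair differed past the test, and the order of the P14 pair turned under quantile and 75th percentile scaling. Igf2, Peg3, Ndn and Cdkn1c lie on chromosome 7, Dlk1 and Meg3 on chromosome 12, Mest on 6, Plagl1 on 10 and Grb10 on 11.

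For members whose group means spanned 1 or more on the log2 scale, the gene with the most similar profile was found as that with the smallest root mean square difference of centred log2 values over the 10 arrays. It was Stc1, a secreted glycoprotein hormone, for Igf2 (0.11), Klhl23 for Meg3 (0.14), Pdlim3, a muscle LIM protein, for Mest (0.15), and Itih5, a hyaluronan-binding matrix protein, for Peg3 (0.22). For Grb10 it was the mitotic protein Pimreg (0.10), and for Ndn it was Arhgap11a (0.09), a GTPase-activating protein of dividing cells. Among the members themselves, the closest pair was Dlk1 and Cdkn1c (0.21), followed by Igf2 and Meg3 (0.22).

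Other imprinted genes were read from a list of 58, of which 40 were tested. With age in room air 15 of the 40 fell and 8 rose, beside 19.1% and 22.2% of all genes. In hyperoxia 5 fell and 5 rose, beside 11.7% and 15.4% of all genes. The medians of the 40 were -0.04 and -0.03. Nnat, a small membrane proteolipid expressed from the paternal copy, fell from 9.997 and 9.94 to 7.64 and 7.43 in room air (-2.43 ± 0.11, SE, limma adjusted p = 5.28e-08). Calcr, the calcitonin receptor, rose (1.91 ± 0.13), as did Cobl, an actin nucleator (0.97 ± 0.09), while Ddc, which makes dopamine and serotonin and adjoins Grb10, fell (-1.17 ± 0.11). In hyperoxia with age Calcr rose (1.03 ± 0.10) and Rian (-0.88 ± 0.11), a noncoding RNA of the Meg3 cluster, Mkrn3 (-0.60 ± 0.10) and the amino acid transporter Slc38a4 (-1.19 ± 0.22) fell.

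Of these 40, 10 were called higher and 7 lower in hyperoxia at P14, beside 32.3% and 22.8% of all genes. At P29 14 were called higher and 8 lower, beside 34.2% and 25.6% of all genes. Nnat was lower at P14 (-1.44 ± 0.10, SE, limma adjusted p = 1.86e-06) and higher at P29 (0.67 ± 0.10, adjusted p = 0.000174), and its effects differed by 2.11 ± 0.14 (adjusted p = 7.26e-06). At P14 Gatm (1.06 ± 0.11), which makes a creatine precursor, the matrix proteoglycan Dcn (1.17 ± 0.13) and the ubiquitin ligase Ube3a (0.70 ± 0.09) rose. At P29 Ddc (1.17 ± 0.10), Airn (1.05 ± 0.10), the noncoding RNA that overlaps the gene Igf2r, Blcap (0.90 ± 0.09) and Gatm (0.94 ± 0.11) rose. For 6 of the 40 the effect was higher at P29 and for 3 lower, beside 11% and 11.6% of all genes. Ddc differed by 1.26 ± 0.14, Dcn by -1.70 ± 0.18 and Cobl by -0.61 ± 0.11.

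Genes of the Igf2 axis and of the fetal growth and imprint maintenance programme were listed apart, and 18 of 22 were tested. In room air 9 of the 18 fell with age and 1 rose, at a median of -0.35, beside 19.1% and 22.2% of all genes. Those that fell included E2f3, a cell cycle factor that can activate Igf2 (-1.28 ± 0.11, SE, limma adjusted p = 6.16e-06), and the polycomb methyltransferase Ezh2 (-1.52 ± 0.16). The DNA methyltransferase Dnmt3a (-0.94 ± 0.10) and Uhrf1, which brings the maintenance methyltransferase to replicated DNA (-1.64 ± 0.20), fell as well. At P29 12 were higher in hyperoxia and 2 lower, with a median of 0.45, beside 34.2% and 25.6% of all genes. Those higher included Uhrf1 (2.84 ± 0.18), E2f3 (1.59 ± 0.10), Dnmt3a (1.20 ± 0.09) and Ezh2 (1.60 ± 0.15). At P14 6 were higher in hyperoxia and 3 lower, beside 32.3% and 22.8% of all genes. The insulin receptor Insr (0.84 ± 0.08), Ctcf, the insulator protein of the Igf2 and H19 locus (0.47 ± 0.09), and Uhrf1 (0.93 ± 0.18) were higher. Zfp57, which protects imprints from demethylation, was lower (-0.89 ± 0.13).

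In hyperoxia with age 2 of the 18 fell and 1 rose, beside 11.7% and 15.4% of all genes. The effects were higher at P29 for 6 and lower for 1, beside 11% and 11.6% of all genes. E2f3 differed by 1.16 ± 0.15, Dnmt3a by 1.003 ± 0.13, Uhrf1 by 1.91 ± 0.26 and Ezh2 by 1.25 ± 0.21 (limma adjusted p = 0.000339, 0.000395, 0.000435 and 0.00158). Igf2r, the imprinted receptor that clears Igf2, was higher in hyperoxia at P29 (0.53 ± 0.17, adjusted p = 0.0164) and fell with age in room air (-0.60 ± 0.18, adjusted p = 0.021), with the same signs as Igf2 in both comparisons.

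The summed levels of fibroblast and pericyte markers and of cell cycle genes were lowest at P29 in room air, as was the members' summed level. The brightest genes weigh most in such a sum. The log2 of the summed linear values of 11 fibroblast and pericyte markers was 16.10 to 16.13 in room air and 15.94 to 15.99 in hyperoxia at P14, and 14.90 to 14.96 in room air and 15.65 to 15.73 in hyperoxia at P29. Of these 11 markers 7 fell and 3 rose with age in room air, and 8 rose and 2 fell in hyperoxia at P29. Of all genes, 19.1% fell and 22.2% rose with age in room air, and 34.2% rose and 25.6% fell in hyperoxia at P29. Single markers went other ways: Pdgfra and Thy1 had their highest group means at P29 in room air (11.91 and 7.78). Lum and Cspg4 had their lowest at P14 in room air (7.39 and 7.48). For 18 cell cycle genes the summed level was 13.44 to 13.73 and 13.88 to 14.18 at P14, and 12.18 to 12.46 and 13.82 to 13.88 at P29, and all 18 fell with age in room air and rose in hyperoxia at P29. At P14 10 cell cycle genes were higher and 0 lower in hyperoxia, beside 32.3% and 22.8% of all genes, while the members' summed level was lower. Single members went both ways there. Peg3 and Ndn were higher (0.60 and 0.74), and Mest, Grb10 and Meg3 were lower (-1.37, -0.51 and -0.39). The summed level of the 9 members was 14.23 on both room-air arrays and 13.997 to 14.02 in hyperoxia at P14, and 12.78 to 12.81 in room air and 13.09 to 13.21 in hyperoxia at P29. Whether a shift in these cells had a part in the members' values was not tested.

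**Figure D4:**
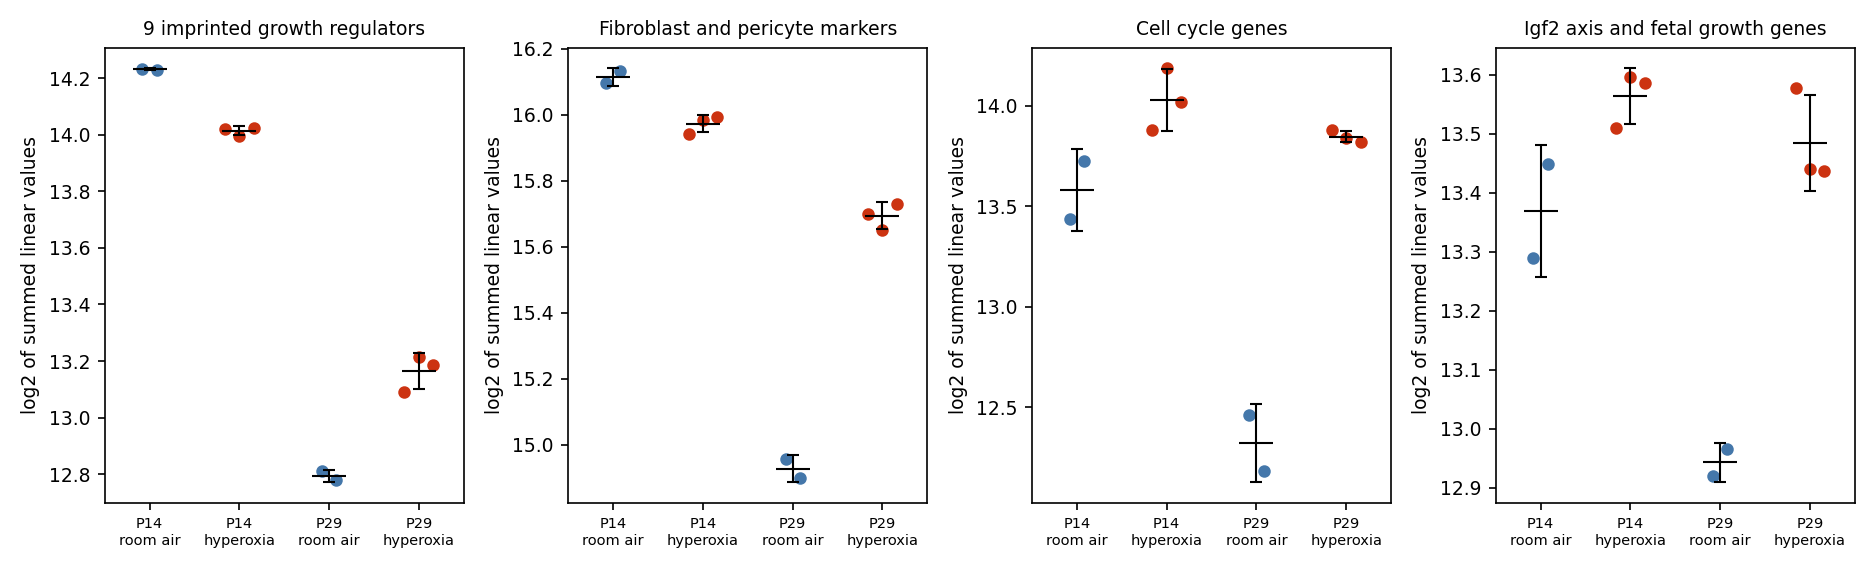
Log2 of the summed linear values of 4 gene lists on each of 10 arrays, by group, with blue points for room air and red for hyperoxia; black lines are group means and bars are SD. In all 4 panels the P29 room-air arrays are lowest, and only for the 9 imprinted growth regulators and the 11 fibroblast and pericyte markers do both P14 room-air arrays lie above all P14 hyperoxia arrays.

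Markers of neighbouring tissues were read on the same arrays. Skeletal muscle markers, 6 of 9 tested, summed to 8.45 to 8.63 in room air and 8.48 to 8.82 in hyperoxia at P14 and to 8.74 to 9.06 and 8.57 to 8.71 at P29, and the muscle myosins Myh1, Myh2 and Myh4 were not among the genes tested. Cartilage markers, 4 of 8 tested, summed to 8.06 to 8.11 and 7.74 to 7.87 at P14 and to 8.28 to 8.35 and 7.66 to 7.90 at P29. Fat markers, 4 of 7 tested, summed to 7.51 to 7.56 and 7.41 to 7.52 at P14 and to 9.44 to 9.91 and 7.96 to 8.15 at P29, and the brown fat marker Ucp1 was not among the genes tested. Cardiac markers, all 8 tested, summed to 12.64 to 12.89 and 13.32 to 13.49 at P14 and to 13.65 to 13.96 and 12.84 to 13.60 at P29. On each of these 4 lists, and on the thymus list given below, the P29 room-air arrays lay above the P14 room-air arrays. Neuron markers, 2 of 7 tested, summed to 10.27 to 10.29 and 9.96 to 10.18 at P14 and to 9.9999 to 10.29 and 9.53 to 9.59 at P29. Thymus markers, 5 of 6 tested, summed to 8.20 to 8.35 and 7.92 to 8.06 at P14 and to 8.47 to 8.60 and 7.96 to 8.02 at P29. The part of these tissues in the members' values was not tested.

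Of 10 lung epithelial markers 8 rose and 0 fell with age in room air, and 2 rose and 5 fell in hyperoxia at P29. Of 6 endothelial markers 3 rose and 0 fell with age in room air, and 0 rose and 4 fell in hyperoxia at P29. With age in hyperoxia 4 epithelial markers rose and 0 fell, and 0 endothelial markers rose and 2 fell. Of all genes, 22.2% rose and 19.1% fell with age in room air, and 15.4% rose and 11.7% fell in hyperoxia. In hyperoxia at P29 34.2% were higher and 25.6% lower. The part of epithelial and endothelial cells in the members' values was not tested.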

How the data were processed

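Total RNA of 10 whole-lung samples was measured on 1-colour Affymetrix mouse arrays. The authors deposited log2 values for each probe set, made with GCRMA in Partek 6.4, per the submitters' processing notes; the sources used here do not give its settings. Depth has no meaning for arrays, and the number of arrays limits the precision.

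Of 45101 probe sets, 34945 carry a single symbol in the platform annotation, which can be old. Where a gene had several, the brightest on average stood for it. A gene entered the test if 2 arrays or more reached a log2 value of 5, as 14988 of 18193 genes did. A linear model with 4 group means was fitted with limma 3.58.1 in R 4.3.3, and moderated tests without trend were adjusted by Benjamini-Hochberg over all kept genes for each of 5 comparisons, with a threshold of 0.05. Differences are given with their SE. With 3 arrays against 2, an exact permutation test of a single gene could not reach the threshold and was not used. The fit was tested on simulated data.

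The members and lists were chosen with earlier results of these data known. All members are named, and from each further list up to 4 genes of smallest p per comparison. Igf2r, and Nnat at P29, fall outside that rule and were named after their values were seen, and the count of CG dinucleotides was added after the data were seen. Alternatives covered normalization, filter, probe set choice, array weights, the actin gap, Y-linked level, replicate block and each array left out. Same-numbered arrays of different groups correlated in their deviations from group means at -0.10 to 0.20 (13 pairs), so the numbers were not taken to pair them.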

Additional observations from a re-analysis of the deposited data

Results flagged for a closer look

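For 6 members the effect of hyperoxia differed between P29 and P14 in a test of the difference itself (limma, adjusted over 14988 genes). The difference was 1.45 on the log2 scale for Grb10, 1.11 for Peg3, 0.99 for Mest, 0.86 for Ndn, 0.56 for Meg3 and 0.49 for Igf2. The calls on Grb10, Peg3 and Ndn held with each array left out in turn, and those on Mest, Meg3 and Igf2 did not. No group had enough arrays for a test of single outlying samples.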

How the results depend on the processing

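Over 23 settings, 110 of 114 counts of called members stayed within 1.5 times the main count. With the actin gap as a term 0 members were called at P14 and 3 at P29, and with the mean of all probe sets of a gene 3 were called at P29. Leaving out each array in turn gave 5 members at P14 each time, though not always the same ones, and 4 to 5 at P29. Without P14 room air replicate 2, Meg3 lost its call at P14 and Plagl1 gained one. The counts were 3 to 6 for the difference of effects, 7 to 9 for age in room air and 7 to 8 for age in hyperoxia. With the replicate block the counts were 5, 5, 6, 9 and 8 in that order, and Cdkn1c with age in room air was the call gained (-0.45, limma adjusted p = 0.0404). Over all genes the median difference at P29 was 0.04 as deposited and -0.10 at the 75th percentile, and at P14 it was 0.04 and -0.06.

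Of the member values 984 kept direction and side of the threshold, 83 lost the call, 25 gained one and 34 changed sign; the cause was not tested. At P14 the sign changed for Cdkn1c under quantile normalization (-0.10) and the 75th percentile (-0.052), and on single probe sets of Meg3 (0.46), Plagl1 (0.037) and Ndn (-0.15). At P29 it changed for Dlk1 with the probe set mean (-0.050), the 75th percentile (-0.084) and the actin gap (-0.10), and for Meg3 with the probe set mean (-0.021) and the actin gap (-0.20). With the actin gap Mest was at 0.10 and Cdkn1c at 0.091, and Cdkn1c was at 0.14 with the Y-linked level and 0.20 against P29 hyperoxia replicate 2 alone. Single probe sets at P29 changed sign for Meg3 (-0.17, -0.18, -0.27, -0.25, -0.13, -0.28 and -0.15), Plagl1 (0.18) and Grb10 (-0.83, also the probe set of highest interquartile range). For the difference of effects the sign changed for Cdkn1c against replicate 2 alone (0.15) and on probe sets of Meg3 (-0.084, -0.59 and -0.11) and Plagl1 (0.14), and with age in room air on a probe set of Meg3 (0.065). With each array left out, Cdkn1c at P14 ran from -0.010 to 0.11, Dlk1 at P29 from -0.071 to 0.16, and the difference for Plagl1 from -0.30 to 0.11.

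The 7 member probe sets below the filter were not tried singly, and the fit of only the groups compared gives no difference of effects. Group sizes of 2 and 3 arrays, unknown animals, RNA integrity that follows exposure and sex that follows age in room air limit all comparisons.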
